A study of Mus musculus with 12 samples.

Results

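The 7 mouse genes for inhibitors of cyclin-dependent kinases (Cdkn1a, Cdkn1b, Cdkn1c, Cdkn2a, Cdkn2b, Cdkn2c and Cdkn2d) were followed through neural stem cells and through the astrocytes made from them with 2 cytokine treatments. They were chosen by symbol, with every probe that the array annotation gives for each, and are 7 of the 17710 genes with a probe of 1 symbol and a value on all arrays. They carry 14 probes, of which 13 passed the filter on dim probes, and all 7 genes were tested.

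Cyclin-dependent kinases drive cells from G1 into S phase by phosphorylating the retinoblastoma protein and its relatives, which releases E2F transcription factors. INK4 proteins, encoded by the Cdkn2 genes, bind the kinases Cdk4 and Cdk6 and keep them from cyclin D. Cip/Kip proteins, encoded by the Cdkn1 genes, bind kinases already joined to cyclins, foremost Cdk2 with cyclin E or A. In neural progenitors these inhibitors are known for setting when cells leave the cycle, and Cdkn2a also for the loss of self-renewal when it is switched on.

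RNA was measured on 12 Illumina bead arrays, 4 for each of 3 groups, all from subventricular neural stem cells of CD1 mice taken on postnatal day 1. Neurosphere arrays hold sorted cells of floating cultures grown with EGF at 20 ng/ml and infected with a control GFP retrovirus. LIF_NOG arrays (LIF.NOG in the titles) hold cells treated for 7 days with LIF at 20 ng/ml and the BMP antagonist noggin at 250 ng/ml, with EGF lowered to 1 ng/ml. In the BMP4 group the 7 days were spent with BMP4 at 20 ng/ml and the same low EGF. The virus in the treated groups had GFP driven by the GFAP promoter instead, so treatment, EGF, days in culture and the sorting reporter cannot be told apart against Neurosphere. The treated groups differ from each other, per the labels, only in LIF with noggin or BMP4. Nothing in the labels ties the 4 arrays of a group to different cultures or mice, so each p-value reflects only how these arrays scatter, and that scatter may be technical.

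All values below are normalised log2 intensities, in which 1 unit is a doubling, and differences are between group means ± SE. A gene was called when its p-value from the limma fit, adjusted over 10788 genes, was under 0.05. Intensities of different probes cannot be set against each other. In RNA pooled from many cells, here sorted by the reporter, fewer cells of a type and less RNA per cell cannot be told apart. Between 38.6% and 42.0% of probes were detected per array. Of the astrocyte markers, Gfap averaged 4.73, 10.98 and 13.88 in Neurosphere, LIF_NOG and BMP4. It was detected on 1 Neurosphere array, while S100b was detected on BMP4 arrays only. The summed level of the 11 markers ran from 24888 to 27770 in Neurosphere, 43181 to 73027 in LIF_NOG and 113066 to 152351 in BMP4. Slc1a3 (13.75, 13.95 and 13.77) and Sox9 (12.04, 12.87 and 12.65) were instead highest in LIF_NOG. Since the GFAP promoter drove the sorting reporter of the treated groups, Gfap is not independent of the sort. The 7 microglial markers with a probe were detected on no array. LIF_NOG 2 stood apart from the other LIF_NOG arrays, at 11.0 against 36.0 to 49.8 on the second principal component. That array had the highest value of its group for 20 of 22 proliferation genes, and LIF_NOG 4 the lowest for 20. Neurosphere 1 stood in another row order in the deposited raw table and was moved into the common order, which matched all 14 probes of the inhibitors.

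By the brightest probe of each gene, Cdkn2b in BMP4 was the only inhibitor called higher against Neurosphere. Over all 13 tested probes, 1 was higher and 2 lower in LIF_NOG, and 2 were higher and 7 lower in BMP4. Those higher included ILMN_1227342 of Cdkn2a in LIF_NOG and ILMN_1214871 of Cdkn1a in BMP4. The counts that follow are for the brightest probes. In LIF_NOG against Neurosphere 0 rose and 1 fell (Cdkn2d), with 33.1% of all genes called, 16.5% higher and 16.5% lower. For 1 of the 7 the groups did not overlap, as for 31.6% of all genes. At an unadjusted p under 0.05 the limma fit had 0 higher and 2 lower, Cdkn2c being the second. In BMP4 against Neurosphere 1 rose (Cdkn2b) and 4 fell (Cdkn1c, Cdkn2a, Cdkn2c and Cdkn2d), with 54.3% of all genes called, 26.6% higher and 27.7% lower. The groups did not overlap for 4 of the 7, as for 52.9% of all genes. In BMP4 against LIF_NOG 2 were higher (Cdkn1a and Cdkn2b) and 3 lower (Cdkn1c, Cdkn2a and Cdkn2c), with 43.9% of genes called, 20.7% higher and 23.2% lower. Here 2 of the 7 did not overlap, as for 37.1% of all genes. The median difference of the 7 was -0.05, -0.70 and -0.54, beside -0.01, 0.00 and -0.00 over all genes. With 7 genes, nothing is read from these counts beyond the single genes. The comparisons share arrays (Neurosphere in the first 2, BMP4 in the last 2, LIF_NOG in the first and last), so their values are not independent.

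**Figure D1:**
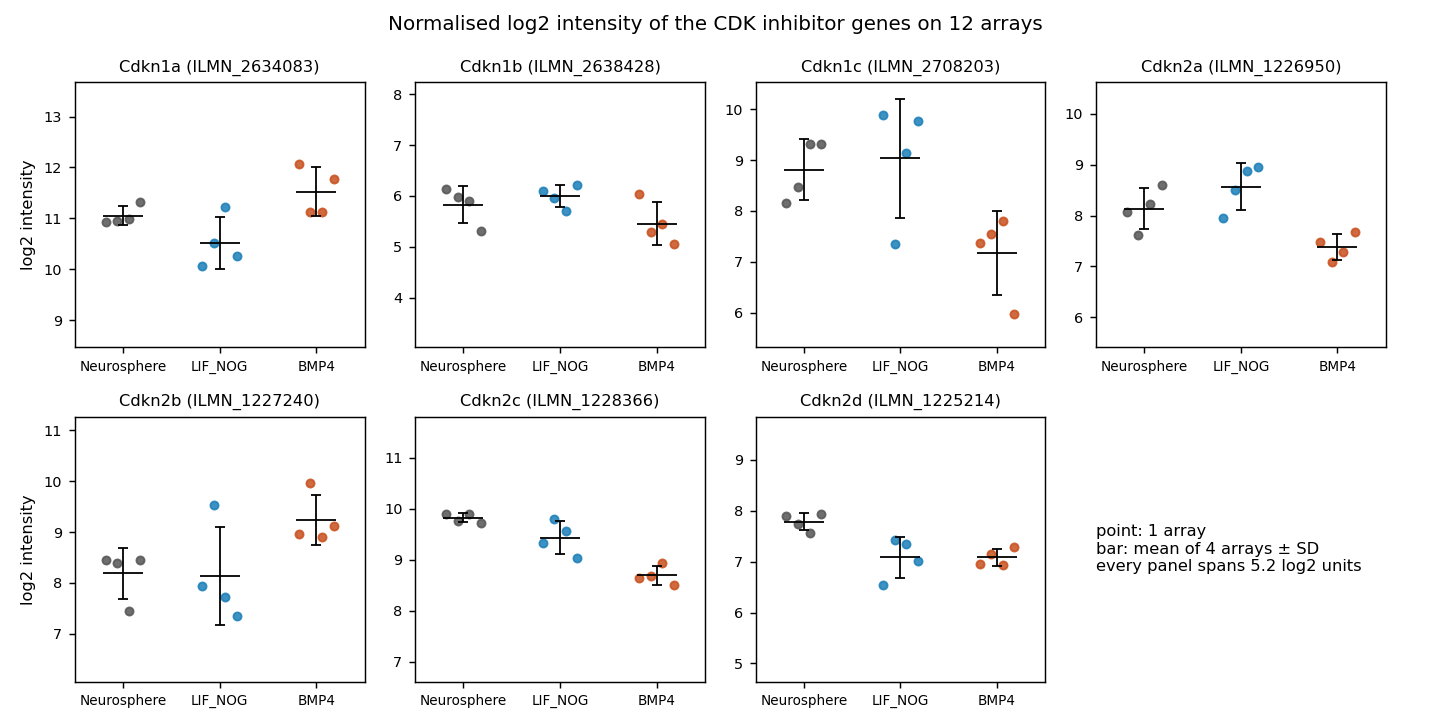
Normalised log2 intensity (y axis) of 1 probe for each of the 7 genes, by group (x axis). Points are single arrays and bars the mean of 4 arrays ± SD. BMP4 arrays lie highest for Cdkn1a and Cdkn2b on average and lowest for Cdkn1c, Cdkn2a and Cdkn2c, where the Cdkn2c groups run from a mean of 9.82 in Neurosphere to 8.70 in BMP4.

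Cdkn1a encodes p21, a Cip/Kip inhibitor best known as a transcriptional target of p53 that halts cells after DNA damage. RefSeq lists 2 start regions for it. They are shown because Cdkn1a and Cdkn2b were the inhibitors higher in BMP4 than in LIF_NOG. Both sequences are from the GRCm38.p6 table, 250 bases before to 50 after the start, on the plus strand. Capitals mark a p53 response element (20 bases, 2 adjoining half-sites, at most 1 mismatch to the consensus, a definition settled after this sequence was read) in the first and GC boxes (GGGCGG on either strand), the kind of site bound by Sp1, in the second.
Cdkn1a upstream start, chr17:29090729-29091028: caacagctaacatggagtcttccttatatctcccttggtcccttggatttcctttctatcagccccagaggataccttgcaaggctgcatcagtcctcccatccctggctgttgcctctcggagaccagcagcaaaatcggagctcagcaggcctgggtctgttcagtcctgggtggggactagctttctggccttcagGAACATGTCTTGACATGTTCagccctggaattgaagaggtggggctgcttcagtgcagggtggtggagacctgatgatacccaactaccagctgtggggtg
Cdkn1a downstream start, chr17:29093519-29093818: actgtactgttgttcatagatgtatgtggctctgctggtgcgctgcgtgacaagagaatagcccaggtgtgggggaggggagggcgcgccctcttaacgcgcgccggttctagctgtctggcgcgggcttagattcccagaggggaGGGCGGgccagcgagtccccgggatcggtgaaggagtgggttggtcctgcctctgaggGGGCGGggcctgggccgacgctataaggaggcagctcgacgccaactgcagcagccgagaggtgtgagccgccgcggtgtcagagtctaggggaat
The p53 element begins 51 bases before the upstream start. A match of this kind was found in 0.0883% of the 32851 promoters of 300 bases in the table, and in no other start region of the 6 inhibitor genes listed there. The downstream start region holds 2 GC boxes, a motif found in 35.7% of all promoters. These are matches of letters and were not tested as binding sites.

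Cdkn1a read 10.92, 10.96, 11.00 and 11.32 on the 4 Neurosphere arrays. In LIF_NOG it read 10.07, 10.52, 11.23 and 10.26, and in BMP4 12.08, 11.12, 11.13 and 11.77. LIF_NOG 3 lay within the Neurosphere range and above 2 BMP4 arrays, and Neurosphere 4 lay above the same 2 BMP4 arrays, so every pair of groups overlapped. Means were 11.05 ± 0.19 (SD, n = 4) in Neurosphere, 10.52 ± 0.51 in LIF_NOG and 11.52 ± 0.48 in BMP4. BMP4 exceeded LIF_NOG by 1.00 ± 0.26, 2.00-fold (adjusted p = 0.00579). Neither treated group was called against Neurosphere, at 0.47 for BMP4 (adjusted p = 0.142) and -0.53 for LIF_NOG (adjusted p = 0.135). Without LIF_NOG 3 the LIF_NOG difference was -0.77 and was called (adjusted p = 0.0234).

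The second Cdkn1a probe (ILMN_1214871) read 10.55, 10.28, 10.18 and 10.39 in Neurosphere and 10.00, 10.36, 10.72 and 9.61 in LIF_NOG. In BMP4 it read 12.35, 10.82, 10.66 and 11.03. All BMP4 arrays exceeded all Neurosphere arrays here, unlike for the first probe, and BMP4 1 was the highest array for both. Over all 20316 kept probes, this probe was higher in BMP4 than in Neurosphere by 0.87 ± 0.32 (adjusted p = 0.0347) and than in LIF_NOG by 1.05 ± 0.32 (adjusted p = 0.0171).

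Cdkn1b encodes p27, the Cip/Kip inhibitor that the ubiquitin ligase subunit Skp2 sends to degradation, so that its protein is known to vary with little change in its RNA. Its chromosome 6 gene was read by 1 usable probe, since the other (ILMN_1228598) was detected on none of the 12 arrays. The usable probe read 6.14, 5.98, 5.89 and 5.30 in Neurosphere, 6.09, 5.96, 5.71 and 6.22 in LIF_NOG, and 6.04, 5.28, 5.44 and 5.05 in BMP4. The groups overlapped in every comparison, and the signal lay close to the detection floor of these arrays (4.80 to 4.92). No difference was called: 0.17 ± 0.22 for LIF_NOG and -0.38 ± 0.22 for BMP4 against Neurosphere (adjusted p = 0.627 and 0.169), and -0.54 ± 0.22 between BMP4 and LIF_NOG (adjusted p = 0.0589). The last passed the threshold without Neurosphere 4 (adjusted p = 0.0375), LIF_NOG 3 (0.0474) or BMP4 1 (0.00997), with arrays scaled to a common median (0.0328), and with the row-order sets described below for Cdkn1c as a block (-0.81, adjusted p = 0.0430). Against Neurosphere, BMP4 was called lower without Neurosphere 4 (adjusted p = 0.0411) or BMP4 1 (0.0281).

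Cdkn1c encodes p57, the Cip/Kip inhibitor expressed from the maternal copy only, in an imprinted cluster of chromosome 7. It read 8.15, 8.48, 9.31 and 9.31 in Neurosphere, 9.89, 7.34, 9.14 and 9.77 in LIF_NOG, and 7.38, 7.54, 7.80 and 5.97 in BMP4. Every BMP4 array lay below every Neurosphere array, while LIF_NOG 2 fell among the BMP4 arrays, far below the other LIF_NOG arrays. The spread within each group was the widest among the 7 genes, with an SD of 1.17 in LIF_NOG and 0.82 in BMP4. BMP4 was lower than Neurosphere by 1.64 ± 0.52 on the log2 scale, 3.12-fold (adjusted p = 0.0159), and than LIF_NOG 3.64-fold, at -1.86 ± 0.52 (adjusted p = 0.0101). LIF_NOG and Neurosphere could not be ordered (0.22 ± 0.52, adjusted p = 0.804).

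Cdkn1c calls depended on single arrays. The fall against Neurosphere ended without Neurosphere 4 (-1.47, adjusted p = 0.0502) or BMP4 4 (-1.24, adjusted p = 0.0578), and both BMP4 calls ended (adjusted p = 0.0784 and 0.0621) when the order of rows in which an array was deposited entered the fit as a block. That order is the one of the authors' processed values, whereas in the raw signals only Neurosphere 1 stood in another order. The arrays split by it into Neurosphere 2 to 4 with LIF_NOG 1 to 3 (set A) and all others, including every BMP4 array. Markers of oligodendrocyte progenitors moved with Cdkn1c in part. Sox10 averaged 7.19 in Neurosphere and 7.90 in LIF_NOG and was detected on no BMP4 array, and Pdgfra averaged 8.52, 8.76 and 5.54. Olig2 (10.87, 9.99 and 9.36), Cspg4 (7.23, 6.36 and 6.48) and Nkx2-2 (6.47, 4.80 and 4.56, detected on 2 LIF_NOG and no BMP4 arrays) were instead lower in LIF_NOG than in Neurosphere already, and Olig1 averaged 14.65, 14.76 and 14.80. The summed level of the 6 progenitor markers, which Olig1 dominates, ran from 25990 to 31153 in Neurosphere, 28214 to 31981 in LIF_NOG and 27960 to 30082 in BMP4. The 5 of 8 myelin markers that passed the filter summed to 323 to 609, 2979 to 7821 and 195 to 312. Their part in the Cdkn1c result was not tested. Of 13 tested imprinted genes (of 22 listed), 3 rose and 3 fell in LIF_NOG and 3 rose and 2 fell in BMP4 against Neurosphere, and 4 were higher and 4 lower in BMP4 against LIF_NOG. Their medians were -0.06, -0.01 and 0.0098, and 33.1%, 54.3% and 43.9% of all genes were called in the same comparisons. With the row-order block the last pair of counts was 2 and 3, and with median scaling 4 fell in BMP4 against Neurosphere. Igf2, a growth factor gene of the neighbouring imprinted domain, was higher by 4.31 ± 0.47 in LIF_NOG and by 2.67 ± 0.47 in BMP4 (adjusted p = 2.57e-05 and 0.000249), and Mest fell by 5.25 ± 0.18 in BMP4 (adjusted p = 5.91e-11).

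Cdkn2a is 1 gene with 2 products from separate starts on chromosome 4. The upstream start gives p19Arf, which holds back Mdm2 and so stabilises p53, and the downstream start gives p16, an INK4 inhibitor. Cdkn2b, the gene for the INK4 inhibitor p15, lies beside it, with only the predicted gene Gm12610 listed between and overlapping Cdkn2b. The 3 starts are shown because Cdkn2b was called higher and Cdkn2a lower in BMP4. All are on the minus strand of GRCm38.p6 in the RefSeq table, and capitals mark GC boxes.
Cdkn2b start, chr4:89310983-89311282: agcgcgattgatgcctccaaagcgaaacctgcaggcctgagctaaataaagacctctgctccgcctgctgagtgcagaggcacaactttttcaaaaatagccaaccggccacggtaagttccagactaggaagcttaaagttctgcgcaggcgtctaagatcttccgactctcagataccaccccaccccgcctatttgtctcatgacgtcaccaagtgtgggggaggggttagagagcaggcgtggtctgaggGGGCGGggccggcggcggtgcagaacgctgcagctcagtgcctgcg
Cdkn2a upstream start (p19Arf), chr4:89294570-89294869: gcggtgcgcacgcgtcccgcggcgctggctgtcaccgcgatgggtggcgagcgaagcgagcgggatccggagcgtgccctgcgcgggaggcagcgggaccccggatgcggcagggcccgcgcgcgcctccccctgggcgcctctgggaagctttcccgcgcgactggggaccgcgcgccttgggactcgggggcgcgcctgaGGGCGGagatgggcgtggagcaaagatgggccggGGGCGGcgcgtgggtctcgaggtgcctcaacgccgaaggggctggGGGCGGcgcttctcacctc
Cdkn2a downstream start (p16), chr4:89282143-89282442: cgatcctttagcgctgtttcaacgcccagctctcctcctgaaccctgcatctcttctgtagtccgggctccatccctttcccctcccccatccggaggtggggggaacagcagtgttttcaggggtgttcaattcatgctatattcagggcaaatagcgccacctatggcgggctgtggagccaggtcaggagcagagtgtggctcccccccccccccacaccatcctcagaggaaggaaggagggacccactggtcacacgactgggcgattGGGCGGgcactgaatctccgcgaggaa
The Cdkn2b and p16 start regions hold 1 GC box each and the p19Arf region 3. Their base composition differs, at 57.7% G and C for Cdkn2b, 60.3% for p16 and 77.0% for p19Arf. The motif GGCGCC, which SMAD proteins can bind, is in 11.9% of all promoters and occurs once in the p19Arf region and not in those of Cdkn2b or p16. The STAT motif TTCNNNGAA, in 8.30% of promoters, was in none of the 9 start regions listed for 6 of the 7 inhibitor genes. These letters were searched on both strands, and nothing follows from a missing match about the factor.

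Cdkn2a, by its brightest probe (ILMN_1226950, annotated to the p16 transcript), read 8.07, 7.63, 8.22 and 8.60 in Neurosphere. It read 7.95, 8.50, 8.87 and 8.95 in LIF_NOG and 7.48, 7.09, 7.29 and 7.68 in BMP4. All BMP4 arrays lay below all LIF_NOG arrays, and 1 Neurosphere array (7.63) fell within the BMP4 range. BMP4 was 2.27-fold lower than LIF_NOG, at -1.18 ± 0.24 (adjusted p = 0.00107), and lower than Neurosphere at -0.74 ± 0.24 (adjusted p = 0.0159). LIF_NOG and Neurosphere did not pass the test (0.44 ± 0.24, adjusted p = 0.182). The call against Neurosphere ended without Neurosphere 4 (-0.59, adjusted p = 0.0578) or BMP4 2 (-0.65, adjusted p = 0.0515), and LIF_NOG was called higher without LIF_NOG 1 (0.65, adjusted p = 0.0453).

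The probe annotated to the p19Arf transcript (ILMN_1221177) read 6.97, 6.65, 7.18 and 7.76 in Neurosphere, 5.95, 7.29, 6.96 and 6.91 in LIF_NOG, and 6.00, 6.13, 5.86 and 6.26 in BMP4. BMP4 arrays lay below every Neurosphere array and in a narrow band, with LIF_NOG 1 at the same level. It fell in BMP4 against Neurosphere (-1.08 ± 0.27, adjusted p = 0.00375) and was lower than in LIF_NOG (-0.72 ± 0.27, adjusted p = 0.0477). A dimmer second p16 probe (ILMN_1227342), detected on 2 Neurosphere, 4 LIF_NOG and 3 BMP4 arrays, read 4.77, 4.55, 4.95 and 4.96 in Neurosphere, 5.69, 5.05, 5.56 and 5.72 in LIF_NOG and 5.25, 4.69, 5.00 and 4.86 in BMP4. All LIF_NOG arrays were above all Neurosphere arrays. It was called higher in LIF_NOG than in Neurosphere (0.70 ± 0.17, adjusted p = 0.00701) and lower in BMP4 than in LIF_NOG (-0.56 ± 0.17, adjusted p = 0.0179), while BMP4 and Neurosphere were not told apart (0.15, adjusted p = 0.528).

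The annotation names a transcript for each probe and not its exon, so a probe in sequence that both products share cannot be told apart here. The brighter p16 probe minus the p19Arf probe, taken within each array, was 1.10, 0.98, 1.04 and 0.84 in Neurosphere, 2.00, 1.21, 1.91 and 2.04 in LIF_NOG, and 1.48, 0.96, 1.43 and 1.42 in BMP4. LIF_NOG exceeded Neurosphere on every array, by 0.80 on average (two-sided exact permutation p = 0.0286, the smallest that 4 against 4 arrays allow). This pair of probes was picked after its values were seen, so its p-value carries no weight as a test. Over the 12 such tests the adjusted exact p was 0.0686, which did not pass 0.05. To pass, most of the 12 would have had to reach the smallest p.

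Cdkn2b read 8.46, 8.39, 7.44 and 8.46 in Neurosphere, 7.93, 9.54, 7.71 and 7.36 in LIF_NOG, and 8.97, 9.96, 8.90 and 9.12 in BMP4. The BMP4 arrays were above all Neurosphere arrays and above all LIF_NOG arrays except LIF_NOG 2. That array was also the one with the lowest Cdkn1c of its group. Cdkn2b rose in BMP4 against Neurosphere by 1.05 ± 0.41, 2.07-fold (adjusted p = 0.0409), and was higher than in LIF_NOG (1.10 ± 0.41, adjusted p = 0.0401). LIF_NOG and Neurosphere were not told apart, with a wide error (-0.05 ± 0.41, adjusted p = 0.947).

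Both Cdkn2b calls lay near the threshold. The call against Neurosphere ended on leaving out any 1 of Neurosphere 1 to 4 or of BMP4 1, 2 or 4 (adjusted p from 0.0505 to 0.133, difference from 0.80 to 1.14). The call against LIF_NOG ended on leaving out LIF_NOG 1, 3 or 4, BMP4 1, 2 or 4, or Neurosphere 1, 2 or 4 (adjusted p from 0.0510 to 0.124). Without LIF_NOG 2 the differences were 1.05 and 1.57, with adjusted p = 0.00316 and 0.000418. On the authors' processed values they were 0.80 and 0.80 (adjusted p = 0.0625 and 0.0744), and with the row-order sets as a block 1.31 and 1.36 (adjusted p = 0.0716 and 0.0777). With the replicate number as a block both were called (limma adjusted p = 0.00800 for each), though the numbers were not taken as pairing the arrays. Both kept their direction under every alternative tried.

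Within each array, Cdkn2b minus the p16 probe was 0.39, 0.76, -0.78 and -0.14 in Neurosphere, -0.02, 1.03, -1.16 and -1.59 in LIF_NOG, and 1.49, 2.87, 1.61 and 1.44 in BMP4. All 4 BMP4 arrays exceeded all 8 others. The difference was larger in BMP4 by 1.80 than in Neurosphere and by 2.29 than in LIF_NOG (two-sided exact permutation p = 0.0286 for each, the smallest possible). Among the same 12 tests the adjusted exact p was 0.0686 for both, with the same limit. This pair too was chosen after its values were seen, so these p-values carry no weight as tests.

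**Figure D2:**
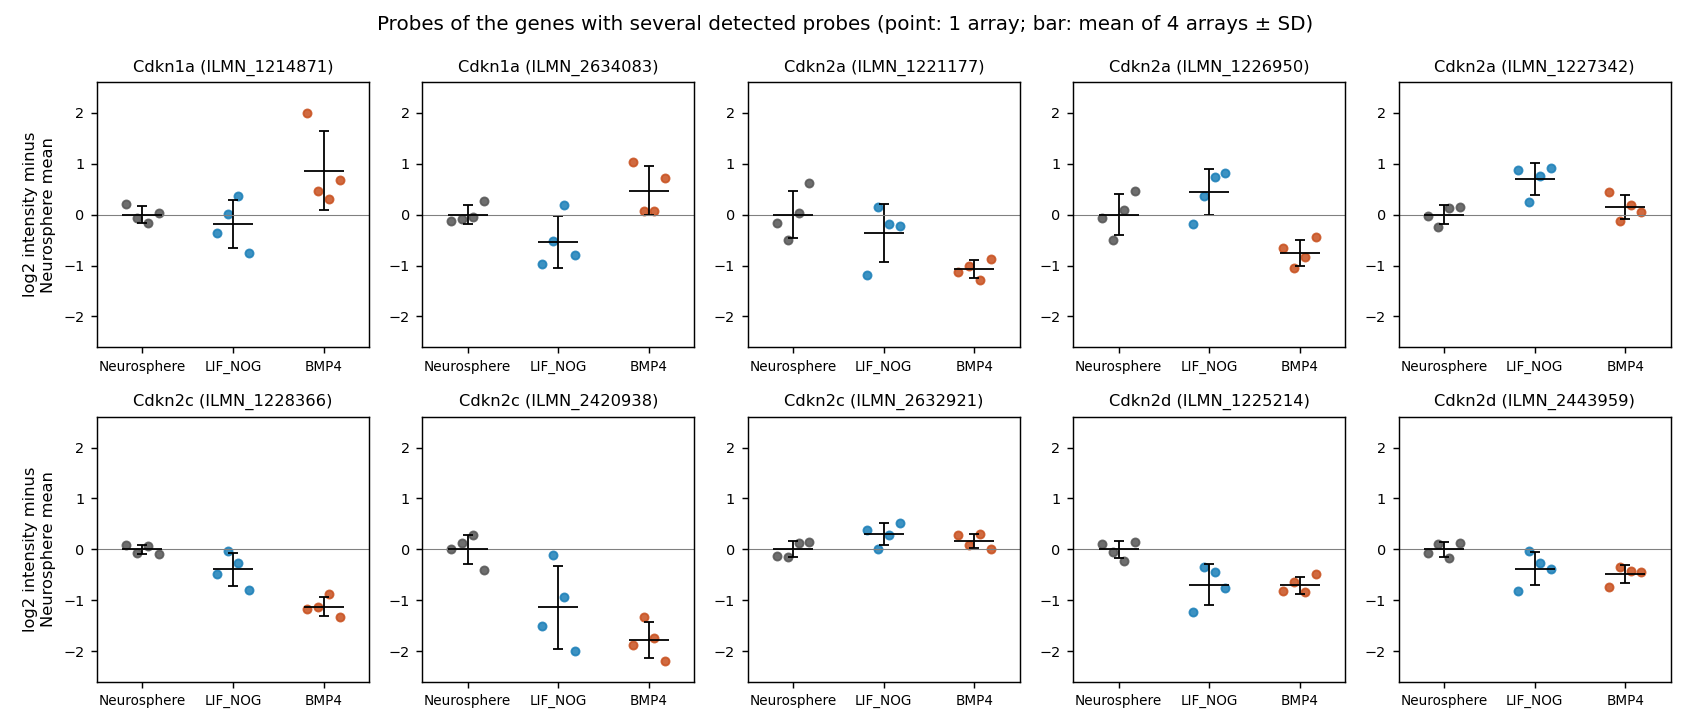
Log2 intensity minus the Neurosphere mean of the same probe (y axis) for the 10 detected probes of Cdkn1a, Cdkn2a, Cdkn2c and Cdkn2d, by group (x axis). Points are arrays and bars means of 4 arrays ± SD. Probes of a gene share the direction in BMP4 for Cdkn1a and Cdkn2d, whereas ILMN_2632921 of Cdkn2c (0.17) and ILMN_1227342 of Cdkn2a (0.15) do not follow the fall seen with the other probes of those genes.

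Cdkn2c encodes p18, an INK4 inhibitor known for high expression in dividing progenitors and, as an E2F target, in cycling cells. Its brightest probe (ILMN_1228366) read 9.91, 9.76, 9.90 and 9.73 in Neurosphere, 9.34, 9.79, 9.56 and 9.03 in LIF_NOG, and 8.65, 8.69, 8.94 and 8.50 in BMP4. The BMP4 arrays lay below all 8 others, and LIF_NOG lay between, with LIF_NOG 2 inside the Neurosphere range. Cdkn2c was 2.18-fold lower in BMP4 than in Neurosphere, at -1.13 ± 0.16 (adjusted p = 2.88e-05), and was lower than in LIF_NOG at -0.73 ± 0.16 (adjusted p = 0.00169). Both calls held under every alternative. LIF_NOG against Neurosphere was -0.39 ± 0.16 (adjusted p = 0.0691), and without LIF_NOG 2 it was called at -0.51 (adjusted p = 0.0118).

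The other Cdkn2c probes differed from it and from each other. ILMN_2420938, annotated to a cDNA clone, read 8.24, 8.36, 8.52 and 7.84 in Neurosphere, 6.73, 8.13, 7.30 and 6.24 in LIF_NOG and 6.37, 6.92, 6.50 and 6.05 in BMP4. It fell by 1.14 ± 0.32 in LIF_NOG and by 1.78 ± 0.32 in BMP4 against Neurosphere (adjusted p = 0.0158 and 0.000307). ILMN_2632921, annotated to the same RefSeq transcript as the brightest probe, read 6.59, 6.58, 6.85 and 6.86 in Neurosphere, 7.10, 6.73, 7.00 and 7.24 in LIF_NOG, and 7.00, 6.80, 7.02 and 6.73 in BMP4. It was called in no comparison, at 0.30 ± 0.14 in LIF_NOG and 0.17 ± 0.14 in BMP4 (adjusted p = 0.119 and 0.348), so the fall of Cdkn2c in BMP4 against Neurosphere rests on 2 of its 3 probes. Between BMP4 and LIF_NOG neither ILMN_2420938 (-0.64 ± 0.32, adjusted p = 0.136) nor ILMN_2632921 (-0.13 ± 0.14, adjusted p = 0.494) was called, so that difference rests on 1 probe.

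Cdkn2d encodes p19Ink4d, an INK4 inhibitor of chromosome 9 known for expression in postmitotic neurons. It read 7.90, 7.74, 7.56 and 7.93 in Neurosphere, 6.55, 7.43, 7.35 and 7.02 in LIF_NOG, and 6.96, 7.14, 6.94 and 7.29 in BMP4. Every treated array lay below every Neurosphere array, while the treated groups overlapped. It fell by 0.70 ± 0.18 in each, to 7.09 ± 0.40 in LIF_NOG (adjusted p = 0.00894) and 7.08 ± 0.17 in BMP4 (adjusted p = 0.00426). Between BMP4 and LIF_NOG the difference was -0.0047 ± 0.18 (adjusted p = 0.986). The BMP4 call held under every alternative, whereas the LIF_NOG call ended with scaling to a common median (-0.56, adjusted p = 0.0667) and within the 6 arrays of set A (-0.63, adjusted p = 0.123).

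The dimmer Cdkn2d probe (ILMN_2443959) read 5.31, 5.49, 5.21 and 5.51 in Neurosphere, 4.56, 5.34, 5.11 and 5.00 in LIF_NOG and 4.63, 5.03, 4.95 and 4.93 in BMP4. Its fall passed the test in BMP4 (-0.49 ± 0.16, adjusted p = 0.0190) and not in LIF_NOG (-0.38 ± 0.16, adjusted p = 0.0953). Over all 13 tested probes, 1 was higher and 2 lower in LIF_NOG, 2 higher and 7 lower in BMP4, and 3 higher and 5 lower in BMP4 against LIF_NOG. Of all 20316 probes, 29.3% were called in LIF_NOG against Neurosphere, 13.5% higher and 15.8% lower. In BMP4 against Neurosphere 50.4% were called, 23.1% higher and 27.2% lower. Between BMP4 and LIF_NOG it was 38.9%, 18.0% higher and 20.9% lower.

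**Figure D3:**
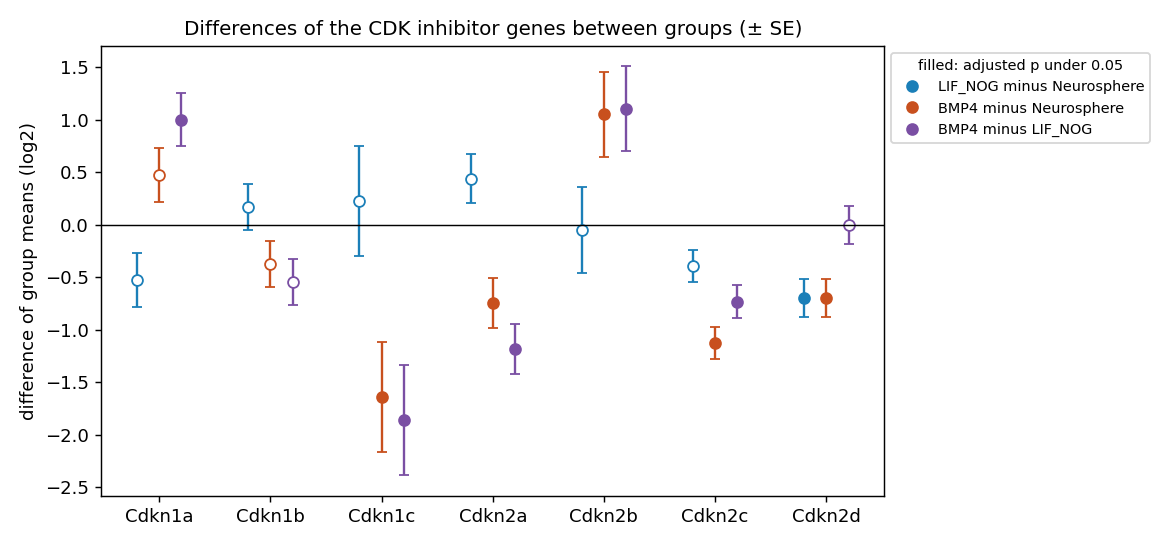
Difference of group means on the log2 scale (y axis, ± moderated SE) for the 7 genes (x axis) in 3 comparisons, marked by colour. Filled points have an adjusted p under 0.05. Cdkn1a and Cdkn2b lie above 0 in both comparisons that involve BMP4, and Cdkn2d shows the same fall of 0.70 in both treated groups.

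By the means of the brightest probe, the groups stood in 3 orders. Cdkn1a and Cdkn2b ran BMP4, Neurosphere, LIF_NOG from high to low. For Cdkn1a BMP4 and LIF_NOG were called apart on this probe, and BMP4 and Neurosphere on the second probe only. For Cdkn2b BMP4 was called above both other groups, which were not told apart. Cdkn1b, Cdkn1c and Cdkn2a ran LIF_NOG, Neurosphere, BMP4, with no call for Cdkn1b and BMP4 called below both others for Cdkn1c and Cdkn2a. The other Cdkn2a probes did not share this order: the p19Arf probe was highest in Neurosphere, and the dimmer p16 probe was lowest there. Cdkn2c and Cdkn2d ran Neurosphere, LIF_NOG, BMP4, with BMP4 called below both others for Cdkn2c and Neurosphere above both treated groups for Cdkn2d. The treated groups were not told apart for Cdkn2d (-0.0047 for BMP4 against LIF_NOG), and their order turned under some alternatives. ILMN_2632921 of Cdkn2c did not share its order, with means of 6.72 in Neurosphere, 7.02 in LIF_NOG and 6.89 in BMP4.

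Genes with a pattern most like each called inhibitor were those with the smallest root mean square difference over the 12 arrays, after each gene was centred on its own mean. Phlda3 was nearest to Cdkn1a (0.20 on the log2 scale), followed by Slc29a1 (0.27) and Plpbp (0.27). Mycl (0.46), Acvr2b (0.47) and Dll3 (0.50) were nearest to Cdkn1c. Zfp532 (0.27), Nradd (0.28) and Smarca4 (0.28) were nearest to Cdkn2a, and Osbpl3 (0.36), Cav2 (0.37) and P2ry6 (0.39) to Cdkn2b. Nudt1 (0.11), Dtymk (0.12) and Chchd1 (0.12) were nearest to Cdkn2c, and Nans (0.15), Dgkz (0.17) and Pycrl (0.17) were nearest to Cdkn2d. No other inhibitor was among these.

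The cyclins and kinases on which the inhibitors act were mostly lower in the treated cells. Of 13 tested G1 cyclins and kinases (of 14 listed), 0 rose and 7 fell in LIF_NOG, and 0 rose and 8 fell in BMP4. At an unadjusted p under 0.05 in the same limma fit 0 rose in either, while 9 fell in LIF_NOG and 8 in BMP4. Between BMP4 and LIF_NOG 1 was higher and 5 lower, and the medians of the 3 comparisons were -0.75, -1.39 and -0.45. Of all genes, 33.1%, 54.3% and 43.9% were called in these comparisons, 16.5%, 27.7% and 23.2% as lower. Ccnd1, the cyclin D1 gene, read 13.52 to 13.72 in Neurosphere, 11.61 to 14.33 in LIF_NOG and 8.81 to 8.99 in BMP4. It fell by 4.69 ± 0.40 in BMP4 (adjusted p = 3.10e-07), and LIF_NOG, with LIF_NOG 2 above every Neurosphere array, was not called (-0.78, adjusted p = 0.159). Ccnd2, for cyclin D2, was instead higher in BMP4 than in LIF_NOG by 1.44 ± 0.36 (adjusted p = 0.00469), where it fell by 1.09 ± 0.36 against Neurosphere (adjusted p = 0.0305).

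Cdk4 and Cdk6, the partners of cyclin D and targets of the INK4 proteins, were called in no comparison. Cdk4 differed by 0.15 ± 0.14 in LIF_NOG and by 0.19 ± 0.14 in BMP4 (adjusted p = 0.482 and 0.283), and Cdk6, at 5.07 to 5.77 near the floor, by -0.17 and -0.07. Cdk2, the main Cip/Kip target, fell by 1.02 ± 0.23 in LIF_NOG and by 1.47 ± 0.23 in BMP4 (adjusted p = 0.00454 and 9.85e-05). Ccne1, for cyclin E1, fell by 2.66 ± 0.27 in BMP4 (adjusted p = 1.54e-06), where it was detected on 2 of 4 arrays. Among 8 tested pocket protein and E2F genes (of 13 listed), 1 rose and 6 fell in each treated group against Neurosphere, and 0 were higher and 5 lower in BMP4 against LIF_NOG (0 and 6 at an unadjusted p under 0.05, limma). Their medians were -0.98, -1.65 and -0.87, and 33.1%, 54.3% and 43.9% of all genes were called in the same comparisons. With the row-order block 2 in place of 5 were lower in BMP4 than in LIF_NOG. Rb1, the retinoblastoma gene, was the one that rose, by 0.46 ± 0.15 in LIF_NOG and 0.60 ± 0.15 in BMP4 (adjusted p = 0.0273 and 0.00280). E2f2 was lower in BMP4 at least 14.2-fold, being detected on none of its arrays (mean 4.58 against 8.70 in Neurosphere, adjusted p = 2.03e-09).

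**Figure D4:**
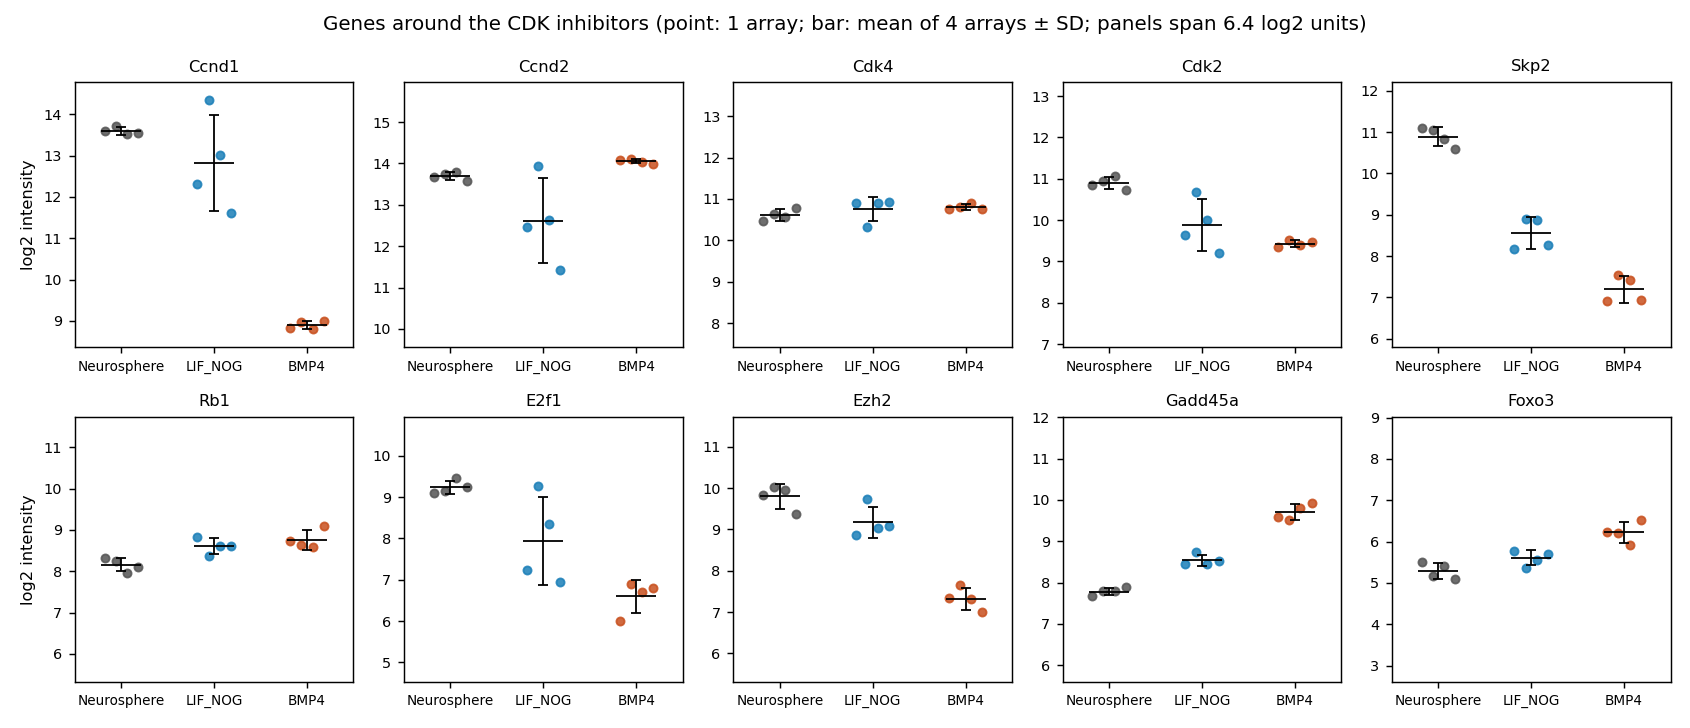
Normalised log2 intensity (y axis) of 10 genes that act with or on the inhibitors, by group (x axis). Points are arrays and bars means of 4 arrays ± SD. Ccnd1 drops to between 8.81 and 8.99 on the BMP4 arrays while Ccnd2 stays at 13.99 to 14.10, and Cdk4 keeps within 10.33 to 10.92 on all 12 arrays.

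Skp2, which marks p27 for degradation, read 10.59 to 11.10 in Neurosphere, 8.17 to 8.91 in LIF_NOG and 6.90 to 7.55 in BMP4, so that no groups overlapped. It differed from Neurosphere by -2.33 ± 0.21 in LIF_NOG and by -3.69 ± 0.21 in BMP4 (adjusted p = 5.20e-06 and 6.85e-09), and BMP4 was lower than LIF_NOG at -1.36 ± 0.21 (adjusted p = 0.000125). Of the 7 tested genes of p27 turnover (of 12 listed), 0 rose and 2 fell in each treated group and 0 were higher and 3 lower in BMP4 against LIF_NOG, as at an unadjusted p under 0.05 in the limma fit. Their medians were -0.02, -0.25 and -0.26, and 33.1%, 54.3% and 43.9% of all genes were called in the same comparisons. In LIF_NOG 1 in place of 2 fell with median scaling or without LIF_NOG 2 or Neurosphere 1, and without LIF_NOG 2 there was 1 that rose in BMP4. The second to fall was Rbx1, a core ligase subunit, at -0.37 and -0.84. Cdkn1b, the substrate's gene, was called in none of these comparisons.

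Cdkn1a is a classical p53 target, and among 13 other tested genes of the p53 list (of 20 listed) 1 rose and 1 fell in LIF_NOG, 2 rose and 0 fell in BMP4, and 4 were higher and 0 lower in BMP4 against LIF_NOG. Counts at an unadjusted p under 0.05 were 3 higher and 1 lower in BMP4, and 5 higher and 0 lower between the treated groups (limma). The medians were -0.10, 0.31 and 0.13. Of all genes, 16.5% rose and 16.5% fell in LIF_NOG, and 26.6% rose and 27.7% fell in BMP4. Between BMP4 and LIF_NOG 20.7% were higher and 23.2% lower. Those called in either direction were 33.1%, 54.3% and 43.9% of all genes. Without LIF_NOG 2 there were 2 higher and 1 lower in LIF_NOG, 3 and 1 in BMP4, and 4 and 1 between the treated groups. In LIF_NOG there were 1 and 0 without Neurosphere 1, and 2 and 0 with median scaling, and in BMP4 1 and 0 with the row-order block. Gadd45a, a growth arrest gene, rose by 0.75 ± 0.12 in LIF_NOG and by 1.93 ± 0.12 in BMP4 (adjusted p = 0.000528 and 2.63e-08). Phlda3, a p53 target that restrains Akt, was higher in BMP4 by 0.68 ± 0.25 than in Neurosphere and by 0.85 ± 0.25 than in LIF_NOG (adjusted p = 0.0299 and 0.0116). Pmaip1, the gene for Noxa, was 1.13 ± 0.33 higher in BMP4 than in LIF_NOG (adjusted p = 0.0126). It read 7.72, 6.73, 6.04 and 5.68 on BMP4 1 to 4, the last 2 within the Neurosphere range of 5.54 to 6.12. Mdm2 and Ccng1, both classical p53 targets, were not called, at 0.31 and 0.32 in BMP4 against Neurosphere (adjusted p = 0.190 and 0.248). BMP4 1 was the highest BMP4 array for Phlda3 (7.90), Pmaip1, Mdm2 (11.50) and Ccng1 (11.91), as for both Cdkn1a probes. Gadd45a was instead highest on BMP4 4 (9.94). Trp53 itself is not analysed here.

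Regulators of the Cdkn2a locus, chiefly Polycomb proteins that silence it, numbered 13 tested genes of 21 listed. In LIF_NOG 1 rose and 3 fell, and in BMP4 1 rose and 10 fell against Neurosphere. Between BMP4 and LIF_NOG 1 was higher and 7 lower, and the medians were -0.0045, -0.84 and -0.52. Of all genes, 33.1%, 54.3% and 43.9% were called in the same comparisons, 16.5%, 27.7% and 23.2% as lower. The gene higher in BMP4 than in LIF_NOG was no longer called with median scaling, with the row-order block or without LIF_NOG 2 or Neurosphere 1. In LIF_NOG against Neurosphere median scaling gave 1 higher and 1 lower, and leaving out Neurosphere 1 gave 0 and 2. Ezh2, the Polycomb methyltransferase, read 9.37 to 10.03 in Neurosphere, 8.85 to 9.72 in LIF_NOG and 7.00 to 7.65 in BMP4. It fell by 0.63 ± 0.20 in LIF_NOG and by 2.48 ± 0.20 in BMP4 (adjusted p = 0.0295 and 2.36e-07). Bmi1, a Polycomb protein that keeps Cdkn2a off in neural stem cells, fell by 0.99 ± 0.24 in BMP4 (adjusted p = 0.00265), and Cbx7 was the member that rose, by 1.08 ± 0.18 (adjusted p = 0.000193).

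Of 17 tested regulators of the FOXO, MYC and SMAD type that act on inhibitor genes (of 24 listed), 8 rose and 0 fell in LIF_NOG, 8 rose and 6 fell in BMP4, and 3 were higher and 9 lower in BMP4 against LIF_NOG. At an unadjusted p under 0.05 there were 8 and 2 in LIF_NOG (limma). The medians were 0.35, 0.51 and -0.47, and 33.1%, 54.3% and 43.9% of all genes were called in the same comparisons. Without LIF_NOG 2 there were 8 higher and 2 lower in LIF_NOG, and the row-order block left 2 higher and 5 lower in BMP4 against LIF_NOG. Foxo3, which can switch on Cdkn1b and Cdkn1a, rose by 0.93 ± 0.15 in BMP4 (adjusted p = 0.000124). Myc, which represses Cdkn1a and Cdkn2b, fell by 0.82 ± 0.15 in BMP4 (adjusted p = 0.000399). Both genes had a group near the floor (4.80 to 4.92), Foxo3 at 5.09 to 5.50 in Neurosphere and Myc at 4.91 to 5.30 in BMP4. Klf4, an activator of Cdkn1a, rose by 3.29 ± 0.21 in LIF_NOG (adjusted p = 3.64e-07). It was lower in BMP4 than in LIF_NOG at -2.01 ± 0.21 (adjusted p = 5.24e-06), a comparison in which Cdkn1a was higher. Klf4 averaged 5.25, 8.54 and 6.53 in Neurosphere, LIF_NOG and BMP4, and its part in the Cdkn1a level was not tested.

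The 22 tested proliferation genes (of 25 listed) fell nearly throughout: 21 in LIF_NOG and 21 in BMP4 against Neurosphere, and 20 in BMP4 against LIF_NOG, with 0 higher, also at an unadjusted p under 0.05 in the limma fit. The medians were -1.64, -4.41 and -2.74. For this list and the next, 33.1%, 54.3% and 43.9% of all genes were called in the same comparisons. Their mean level per array was 9.95 to 10.06 in Neurosphere, 7.58 to 9.45 in LIF_NOG and 5.75 to 6.63 in BMP4. By its brightest probe Cdkn2c ran in the same order over the groups. Within LIF_NOG that probe too was highest on LIF_NOG 2 and lowest on LIF_NOG 4, as was ILMN_2420938. ILMN_2632921 of Cdkn2c was instead lowest on LIF_NOG 2 (6.73) and highest on LIF_NOG 4 (7.24). Cdkn2b, highest in BMP4, was also highest on LIF_NOG 2 (9.54) and lowest on LIF_NOG 4 (7.36) within LIF_NOG. Within BMP4 the proliferation mean was highest on BMP4 2 and lowest on BMP4 1. The brightest Cdkn2c probe was highest there on BMP4 3 (8.94) and lowest on BMP4 4 (8.50). The part of cell division in the inhibitors' levels was not tested. Of 10 other tested CDK regulators (of 14 listed), 1 rose and 4 fell in LIF_NOG, 2 rose and 5 fell in BMP4, and 2 were higher and 3 lower in BMP4 against LIF_NOG, with medians of -0.34, -0.30 and 0.07. The 1 that rose in LIF_NOG was not called with the row-order block or without Neurosphere 1, and 3 in place of 5 fell in BMP4 with that block or with median scaling. Cdc25c, the phosphatase that activates Cdk1, fell by 1.34 ± 0.27 in LIF_NOG (adjusted p = 0.00217), and Cdkn2aipnl fell by 2.00 ± 0.13 in BMP4 (adjusted p = 3.48e-08). Cables1, which links kinases to their regulators, was higher in BMP4 than in LIF_NOG by 1.20 ± 0.22 (adjusted p = 0.000471).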

How the data were processed

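The deposited raw table gives a signal intensity per probe and array with no normalization between arrays, and beside it a detection p-value, per the file headers. Intensity values as the authors processed them stand in another deposited table, used as an alternative. BeadStudio 3 and lumi 2.15.1 are named, with no roles, in the submitters' processing notes. No per-sample column was left unused (0).

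The signal of Neurosphere 1 (rank correlation 0.0104 with other arrays) was realigned through 5 arrays that stand in both row orders, matching ranks within 0.002. This matched 46623 of 46630 rows, and its correlation within the group became 0.916 to 0.928. Of 46615 probes, 29965 carried 1 symbol, 10 several and 16640 none. Probes detected (p-value under 0.05) on at least 4 of 12 arrays were kept (20316). The brightest probe stood for a gene (10788 genes).

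Signals were processed with neqc (offset 16) of limma 3.58.1 in R 4.3.3, and lmFit, contrasts.fit and eBayes then compared the 3 group means over all 12 arrays (two-sided, Benjamini-Hochberg). The fit was tested on simulated data. Exact permutation tests used scipy 1.17.1, figures matplotlib 3.10.9, and tables pandas 2.3.3 in Python 3.11.15. The number of arrays limits the precision.

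The members, and the lists around them (G1 cyclins and kinases, pocket proteins and E2F, p27 turnover, p53, Cdkn2a locus regulators, FOXO, MYC and SMAD-type factors, imprinted genes, proliferation, other CDK regulators), were chosen with earlier results of these data known. By rule, genes named are the members, a set of 17 partner genes whatever their result, the up to 3 called genes of each list with the largest change per comparison (some given by counts only) and the 3 nearest patterns per called member. Of the 17, Cks1b did not pass the filter, and Trp53 is not analysed here. Promoter sequences are from RefSeq's GRCm38.p6 (6 of 7 members matched, Cdkn1c has no entry). Symbols are the platform annotation's. Alternatives covered normalization, background, filter, probe choice, row-order set, replicate block and each array left out.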

Additional observations from a re-analysis of the deposited data

Results flagged for a closer look

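Over the 42 groups of 4 arrays given by the 14 probes, 1 array stood far from the rest of its group, and chance marks about 1 in 20 such groups. Cdkn2b read 7.44 on Neurosphere 3, against 8.39 to 8.46 on the other Neurosphere arrays. Without that array the difference between BMP4 and Neurosphere was 0.80 (limma adjusted p = 0.133), and the call ended.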

How the results depend on the processing

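Of 21 differences (7 genes in 3 comparisons), 11 were called, and 5 of those stayed called under every alternative tried: Cdkn2c and Cdkn2d in BMP4 against Neurosphere, and Cdkn1a, Cdkn2a and Cdkn2c in BMP4 against LIF_NOG. No alternative read Cdkn2c by another single probe. Its other probes were not called in BMP4 against LIF_NOG (limma adjusted p = 0.136 and 0.494), nor was ILMN_2632921 in BMP4 against Neurosphere (0.17). No called difference turned its direction. In LIF_NOG against Neurosphere, where 1 inhibitor was called, 0 were called with median scaling or within row-order set A (1 each at an unadjusted p under 0.05, limma), 2 with the mean of probes and 1 to 2 on leaving out single arrays. Within set A 1692 genes were called in place of 3567, and 0 inhibitor probes in place of 3 (3 at an unadjusted p), while single arrays left out gave 3 to 6. With median scaling 62.4% of the called genes were higher in that comparison, against 50.0%. In BMP4 against Neurosphere the row-order block gave 3 inhibitors in place of 5, with 3 to 5 on leaving out arrays. Its 9 called probes became 5 under the row-order block, 5 with no detection filter and 5 to 9 on leaving out arrays. In BMP4 against LIF_NOG 8 called probes became 3, 5 and 5 to 8 under these settings. Directions that turned were all of differences that were not called. Cdkn1c in LIF_NOG against Neurosphere was -0.24 within set A and -0.062 to 0.79 on leaving out arrays. Cdkn2b there was 0.071 with median scaling, 0.0025 on the authors' values, 0.30 within set A and -0.52 to 0.21 on leaving out arrays. Cdkn1b there ran from -0.0093 to 0.27, and Cdkn2d in BMP4 against LIF_NOG from -0.18 to 0.11. The replicate block called 2 inhibitors in LIF_NOG against Neurosphere (Cdkn2c, adjusted p = 0.0474, joined) and Cdkn1b in BMP4 against LIF_NOG (adjusted p = 0.0360), and it changed no other call of the 21. Both Cdkn2b calls had an adjusted p of 0.00800 under it. It moved the counts of the gene lists by at most 1, including 1 lower gene in place of 0 for the p53 list in BMP4 and for the FOXO, MYC and SMAD list in LIF_NOG, against Neurosphere. Deviations of same-numbered arrays correlated at -0.05 to 0.26 over all 12 pairs, not all above 0.1, so the numbers were not taken as pairing the arrays. As a hint from the data, the LIF_NOG and BMP4 pairs of the same number (0.06 to 0.20) all lay above those of different numbers (-0.19 to 0.03). Signals near the floor, as for Cdkn1b, limit what can be told apart.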
